A study of Mus musculus with 60 samples.

Results

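The cortical layer and projection neuron genes described here are 9 genes used as markers of glutamatergic neurons of the cortex, which need not be confined to them. These 9 were taken by their symbols from the 18088 genes of a table of mouse prefrontal cortex RNA. They comprise the pan-projection neuron genes Neurod6 and Nrgn, the upper layer genes Cux2, Rorb and Lamp5, and the deep layer genes Fezf2, Etv1, Tbr1 and Tle4. The mice were of the C57BL/6J strain and 25 days old, and their messenger RNA gave 60 libraries in 12 groups of 5. For each sex, mice labelled HT (heterozygous for Trip12, which encodes a HECT-domain ubiquitin ligase) had received fluoxetine, lithium or vehicle through the mother's milk from postnatal day 3 to 24, and so had mice labelled WT (wild type). Fluoxetine blocks the serotonin transporter and is used as an antidepressant; lithium is given in bipolar disorder. The labels name no Trip12 allele, dose, dam or litter, so pups that shared a dam cannot be recognised and p-values reflect only how far these libraries spread.

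Projection neurons of the cortex are glutamatergic cells that send axons out of their area, and each layer holds classes with their own targets. Upper layer neurons project mainly within the cortex, while deep layer neurons project to brain stem, spinal cord and thalamus. Transcription factors set up these classes before birth, partly by repressing one another, and many of the same genes stay active in the juvenile brain, where they serve as markers of a layer.

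The genotype label could not be checked by Trip12 mRNA. Trip12 averaged 6186 ± 323 normalized counts in the 30 libraries labelled HT and 5739.5 ± 401 in the 30 WT libraries (SD), a log2 fold change of 0.11 ± 0.022 (limma adjusted p = 0.0014), so the targeted gene was not lower in libraries labelled HT. Single libraries held 5489 to 6953 labelled HT and 4394 to 6362 WT. Every statement on HT below is therefore about the label. Normalized counts are reads per gene divided by a size factor for each library. Depth ran from 25.1 to 36.6 M reads and followed treatment: fluoxetine libraries held 32.7 to 36.6 M, lithium libraries 25.1 to 35.9 M and vehicle libraries 26.6 to 31 M, so fluoxetine and vehicle libraries did not overlap. The cortical marker Slc17a7 (vesicular glutamate transporter) was detected in every library, at 36450.0 normalized counts or more. Markers of neighbouring tissue varied between libraries of the same group. The striatal gene Drd2 ranged from 16 to 399 normalized counts, highest in male 4 of the vehicle group labelled HT, and the olfactory bulb gene Tbx21 from 1.09 to 344, highest in WT lithium female 2. None of the defining markers examined was at 0 in any library. Vehicle male 1 labelled HT and WT fluoxetine male 2 had been doubted in an earlier analysis of these data, and results that change without them are named. The first held the highest Trip12 value of all 60 libraries (6953 normalized counts) and the second the lowest (4394).

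The promoter windows of 4 members are shown. Of these, Neurod6 and Nrgn rose under fluoxetine in libraries labelled HT, with the limits given below, and Fezf2 and Tbr1 varied most closely together across libraries. Each window runs 5′ to 3′ from 250 bases before to 50 bases after the start used in the RefSeq table on GRCm38.p6. For Nrgn, Fezf2 and Tbr1 that start differs from the GENCODE gene start. The Fezf2 and Tbr1 windows lie inside the gene coordinates given further on, and the Nrgn window lies mostly inside them. The capitals mark the E-box CANNTG, the letters that basic helix-loop-helix factors such as Neurod6 recognise.
Neurod6, chr6:55681214-55681513, minus strand: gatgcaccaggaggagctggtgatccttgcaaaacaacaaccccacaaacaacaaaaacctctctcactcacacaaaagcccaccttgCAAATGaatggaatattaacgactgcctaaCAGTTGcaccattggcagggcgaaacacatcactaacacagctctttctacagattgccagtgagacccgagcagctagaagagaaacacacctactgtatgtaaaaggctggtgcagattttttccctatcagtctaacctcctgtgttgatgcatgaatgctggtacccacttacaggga
Nrgn, chr9:37552696-37552995, minus strand: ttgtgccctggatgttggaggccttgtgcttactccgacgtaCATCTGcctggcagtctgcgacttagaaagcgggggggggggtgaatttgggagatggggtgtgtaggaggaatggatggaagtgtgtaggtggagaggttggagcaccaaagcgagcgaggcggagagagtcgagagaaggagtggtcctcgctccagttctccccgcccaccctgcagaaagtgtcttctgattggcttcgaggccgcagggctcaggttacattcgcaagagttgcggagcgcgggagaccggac
Fezf2, chr14:12345816-12346115, minus strand: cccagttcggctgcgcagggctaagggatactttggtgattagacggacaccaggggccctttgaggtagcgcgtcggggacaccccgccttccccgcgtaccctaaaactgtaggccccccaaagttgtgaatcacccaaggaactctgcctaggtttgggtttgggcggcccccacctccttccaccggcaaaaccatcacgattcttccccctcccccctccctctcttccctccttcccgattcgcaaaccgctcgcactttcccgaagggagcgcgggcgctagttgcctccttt
Tbr1, chr2:61804203-61804502, plus strand: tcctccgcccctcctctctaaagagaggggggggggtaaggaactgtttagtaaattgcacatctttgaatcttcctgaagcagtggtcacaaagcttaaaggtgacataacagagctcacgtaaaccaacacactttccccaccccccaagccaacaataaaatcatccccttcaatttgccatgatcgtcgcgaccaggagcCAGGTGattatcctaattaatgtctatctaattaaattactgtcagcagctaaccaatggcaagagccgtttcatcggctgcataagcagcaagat

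The Neurod6 window held 2 E-boxes, the Nrgn and Tbr1 windows 1 each and the Fezf2 window none. Across all 32851 windows of this length 72.3% held the letters, which read the same on both strands, and 8 of the 9 members had a window with them. The T-box letters GGTGTGA, the CRE half-site TGACG and the TATA box TATAAA were searched on both strands too. They lie in 3.98%, 20.8% and 13.6% of all windows, and of the 14 windows that the 9 members have in the table the T-box and CRE letters were in none and the TATA box in 1 window each of Cux2 and Etv1. The windows differed in base composition: G and C made up 61.3% of the Fezf2 window and 59.3% of the Nrgn window, but 46.3% of the Neurod6 window and 46% of the Tbr1 window, against a median of 52.7% over all windows. These matches describe the letters and were not related to binding.

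All 9 members were detected in every library and passed the filter on low values. Per kilobase of merged exons, the scale on which genes can be compared, Nrgn stood far above the others at a mean of 23685 normalized counts per kb over the 60 libraries. Nrgn encodes neurogranin, a calmodulin-binding protein of postsynaptic spines. Next came the upper layer gene Lamp5, which encodes a lysosome-associated membrane protein family member, at 1871 per kb, and Neurod6, a basic helix-loop-helix transcription factor of postmitotic pyramidal neurons, at 1321 per kb. Tbr1, a T-box factor of corticothalamic and early-born neurons, had 670.4 per kb. The homeodomain factor Cux2 of upper layer neurons had 326 per kb and Fezf2, a zinc finger factor that specifies subcerebral projection neurons, 285 per kb. Etv1, an ETS factor of deep layer output neurons, and Tle4, a Groucho-family corepressor of corticothalamic neurons, had 224 and 218 per kb. Rorb, a nuclear receptor of the thalamus-receiving layer, was lowest at 92.6 per kb.

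By the GENCODE annotation, members lie on 7 chromosomes of GRCm38: Lamp5 and Tbr1 share chromosome 2, where Tbr1 occupies chr2:61802930-61814114, plus strand, and Rorb and Tle4 share chromosome 19. Neurod6 lies at chr6:55677822-55681263, minus strand, Nrgn at chr9:37544492-37552904, minus strand and Fezf2 at chr14:12342094-12348189, minus strand.

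**Figure D1:**
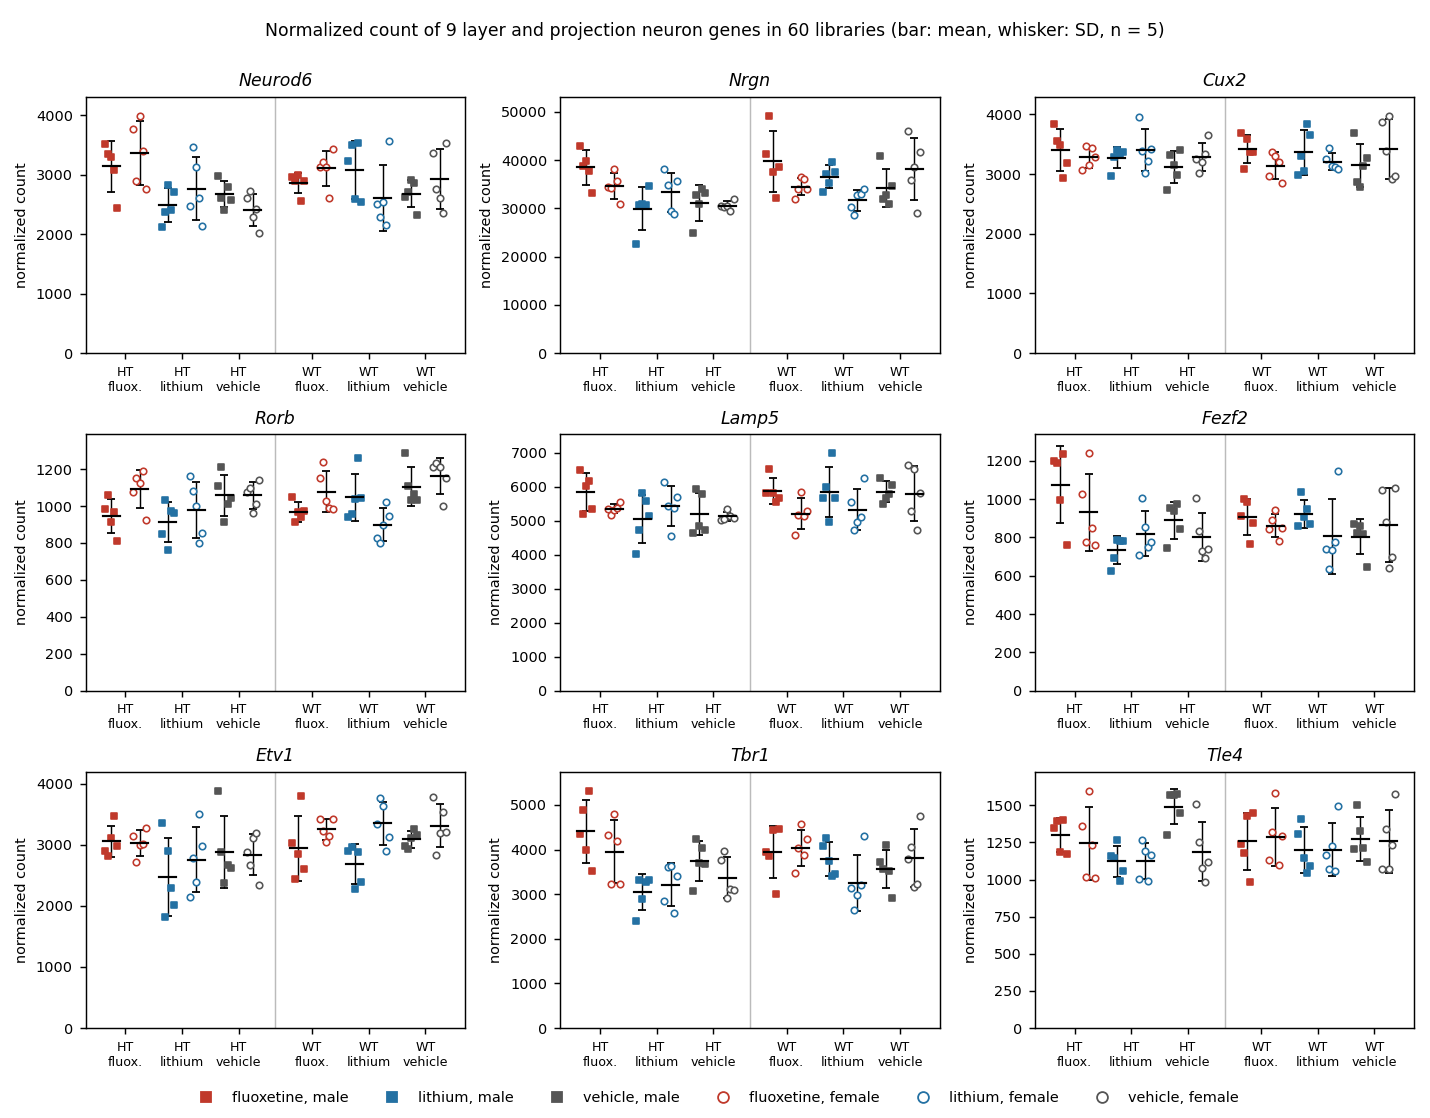
Normalized count (y axis, from 0) of each of the 9 genes in all 60 libraries, by genotype label, treatment and sex (x axis); squares are male and circles female libraries, bars are means and whiskers SDs of 5 libraries. The 5 fluoxetine females labelled HT sit between 2759 and 3989 for Neurod6, above all 5 vehicle females labelled HT, and the lithium males labelled HT have the lowest group mean for 6 of the 9 genes.

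Levels differed little between the 12 groups for any member, as the plot of normalized counts by group shows. The highest group mean was 1.47 times the lowest for Fezf2, 1.45 for Tbr1 and 1.39 for Neurod6, and 1.09 for Cux2 at the low end. When the groups were put in order of their means, all 11 pairs of neighbours overlapped for each of the 9 genes. Neighbours are the groups closest in mean, so their overlap was likely beforehand and does not describe groups further apart. The ends of the order did not overlap for Neurod6, Tbr1 and Tle4. Those ends were picked for each gene from the same values as the extremes of 12 groups, which favours a gap between them. The share of all genes with such a gap was not computed. For Neurod6 the ends were fluoxetine females labelled HT (3360.0 ± 534) and vehicle females labelled HT (2410.2 ± 273, normalized counts, SD, n = 5 each). For Tbr1 they were fluoxetine males labelled HT (4412 ± 705) and lithium males labelled HT (3043 ± 401). For Tle4 they were lithium males labelled HT, the lowest at 1123 ± 105, and vehicle males labelled HT, the highest at 1492 ± 121. The other 6 members had overlapping ends. Cux2 group means lay between 3127 ± 269 (vehicle males labelled HT) and 3422 ± 498 (WT vehicle females), and Lamp5 group means between 5049 ± 708 in lithium males labelled HT and 5869.5 ± 373 in WT fluoxetine males. Lithium males labelled HT had the lowest mean of all groups for 6 members, and male 1 of that group was the lowest of all 60 libraries for Nrgn, Lamp5, Fezf2 and Tbr1. The same library was also the lowest of all 60 for Slc17a7, at 36450 normalized counts. Its normalized counts over all genes summed to 27.6 M, the lowest sum of the 60 libraries.

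Variation between libraries of the same group was wider for the deep layer genes than for the upper layer ones. The residual SD on the log2 scale was 0.223 for Fezf2, 0.211 for Tbr1, 0.201 for Etv1 and 0.196 for Tle4, with 0.201 for Neurod6. It was 0.13 for Cux2, 0.144 for Lamp5 and 0.149 for Rorb, against a median of 0.133 over the 12476 genes that averaged at least 100 normalized counts. In every comparison below limma fitted all 17804 genes that passed the filter, on log2(normalized count + 1). Called means a p under 0.05 after Benjamini-Hochberg adjustment over all of them. Adjusted p-values are limma's, ± is the SE of a log2 fold change unless SD is stated, and a fold change on this scale slightly understates that of low genes.

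Under fluoxetine, both pan-projection genes rose in libraries labelled HT. Neurod6 rose to 3249 ± 469.8 normalized counts in the 10 fluoxetine libraries labelled HT, against 2541 ± 271 in the 10 vehicle libraries labelled HT (SD). In the same libraries Nrgn averaged 36572 ± 3596 under fluoxetine and 30847 ± 2553 under vehicle. The other 7 members were not called, so 2 of 9 rose and none fell. Of all genes tested 10.2% were called, 4.7% as higher. Less RNA per cell and fewer cells of a type cannot be told apart in these bulk samples, here or below.

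Neurod6 had 3764, 2889.5, 3989, 3399 and 2759 normalized counts in the 5 fluoxetine females labelled HT, against 2605, 2718, 2286, 2418 and 2024 in the vehicle females labelled HT. In males labelled HT it had 3523, 3354, 3293, 3085 and 2432 under fluoxetine and 2982, 2606, 2413, 2791 and 2571 under vehicle. The female groups did not overlap, whereas in males 4 fluoxetine libraries lay above all vehicle libraries and male 5 lay near the bottom of the vehicle range. With the sexes averaged the log2 fold change was 0.35 ± 0.086 (adjusted p = 0.0066), with 9 of 10 fluoxetine libraries above their sex's vehicle mean. It was 0.47 ± 0.12 (adjusted p = 0.013) in females, where Neurod6 was the 1 member called (6.86% of all genes), and 0.22 ± 0.12 (adjusted p = 0.5) in males, where no member was called (0.595% of all genes).

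Nrgn had 42978, 38872, 39783, 37742 and 33155 normalized counts in fluoxetine males labelled HT, against 24872, 32716, 30948, 33926 and 33269 in vehicle males labelled HT. In females labelled HT the values were 34422, 34179, 38153, 35596 and 30838 under fluoxetine and 30548, 30382, 30430.4, 29355 and 32022 under vehicle. The groups overlapped in both sexes, in each by the lowest fluoxetine library, although 10 of 10 fluoxetine libraries lay above their sex's vehicle mean. The log2 fold change was 0.24 ± 0.071 (adjusted p = 0.02) with the sexes averaged.

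Of the members not called in libraries labelled HT, Fezf2 and Tbr1 had similar point estimates, 0.23 ± 0.096 (adjusted p = 0.11) and 0.23 ± 0.091 (adjusted p = 0.1). Lamp5 had 0.12 ± 0.063 (adjusted p = 0.24) and Etv1 0.10 ± 0.087 (adjusted p = 0.51). Cux2, Rorb and Tle4 lay between -0.069 and 0.058. In WT libraries limma, edgeR and DESeq2 called 0 members under fluoxetine and 1 had an unadjusted limma p under 0.05; 0.208% of all genes were called by limma. Neurod6 there had 3137, 3213, 3125, 2615 and 3436 normalized counts in fluoxetine females and 3364, 2766, 2607, 2360.5 and 3539.9 in vehicle females, which overlapped. The WT log2 fold change over both sexes was 0.095 ± 0.086 (adjusted p = 0.75) for Neurod6 and 0.039 ± 0.071 (adjusted p = 0.89) for Nrgn. The interaction of genotype label and fluoxetine was 0.25 ± 0.12 (adjusted p = 1) for Neurod6 and 0.21 ± 0.10 (adjusted p = 1) for Nrgn, so the response is not shown to differ between the labels. In that test limma called 0 genes, 786 had an unadjusted p under 0.05, and neither edgeR nor DESeq2 called a member.

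Averaged over both genotype labels, which includes the libraries above, Neurod6 had 3115 ± 396 normalized counts in 20 fluoxetine libraries and 2673 ± 355 in 20 vehicle libraries (SD). Its log2 fold change was 0.22 ± 0.061 (adjusted p = 0.01). Nrgn passed the threshold narrowly at 0.14 ± 0.05 (adjusted p = 0.047). With it 2 of 9 members were called, both higher, against 14.5% of all genes, 6.71% as higher. The Nrgn call was lost when any 1 of 28 of the 40 libraries was left out and without the 2 doubted libraries together, when its log2 fold change was 0.10 (adjusted p = 0.11). With depth as a covariate neither was called over both labels, Neurod6 at 0.12 (adjusted p = 0.59) and Nrgn at 0.018 (adjusted p = 0.94), and with covariates for the olfactory bulb and striatal scores Nrgn was not, at 0.095 (adjusted p = 0.13).

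Other genes of the same cell classes moved less evenly under fluoxetine in libraries labelled HT. Of the other pan-projection genes 1 of 22 rose and 1 fell, with a median log2 fold change of 0.092, beside -0.0036 for all genes. Neurod2, a relative of Neurod6, rose by 0.24 ± 0.079 (adjusted p = 0.04), while Kcnj4, an inward-rectifier potassium channel, fell, with -0.25 ± 0.048 (adjusted p = 8.4e-04). Of the other upper layer genes 2 of 16 rose and 0 fell, with a median log2 fold change of 0.063; Pou3f2, a POU-domain factor, rose by 0.18 ± 0.056 (adjusted p = 0.027). Of the other deep layer genes 1 of 27 rose and 0 fell, with a median log2 fold change of 0.0074, and the one that rose was Ldb2, a LIM-domain binding protein, at 0.26 ± 0.078 (adjusted p = 0.025). In WT no gene of these 3 lists was called. Of all genes 10.2% were called in libraries labelled HT, 4.7% as higher, and 0.208% were called in WT.

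Depth and tissue markers moved with these rises. Fluoxetine libraries were deeper than all vehicle libraries, so depth and fluoxetine cannot be told apart; with log2 depth as a covariate the fold change was 0.25 (adjusted p = 0.22) for Neurod6 and 0.13 (adjusted p = 0.5) for Nrgn in libraries labelled HT. Among 15 olfactory bulb markers none was called and the median log2 fold change was -0.82 in libraries labelled HT, where their summed level was 8573 to 22437 normalized counts under fluoxetine and 9529 to 28517 under vehicle. Of 19 striatal markers 4 fell, with summed levels of 16249 to 29347 under fluoxetine and 15211 to 42058 under vehicle. With both marker scores as covariates Neurod6 had 0.30 (adjusted p = 0.023) and Nrgn 0.19 (adjusted p = 0.051), just above the threshold and not called, while Tbr1 at 0.25 (adjusted p = 0.01) and Rorb at -0.20 (adjusted p = 0.0073) were called. Of 10 endothelial and mural cell markers 4 rose (median 0.19), beside 10.2% of all genes called in either direction. Of 24 interneuron markers 1 fell (median -0.11). The part of these cells in the rises was not tested.

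**Figure D2:**
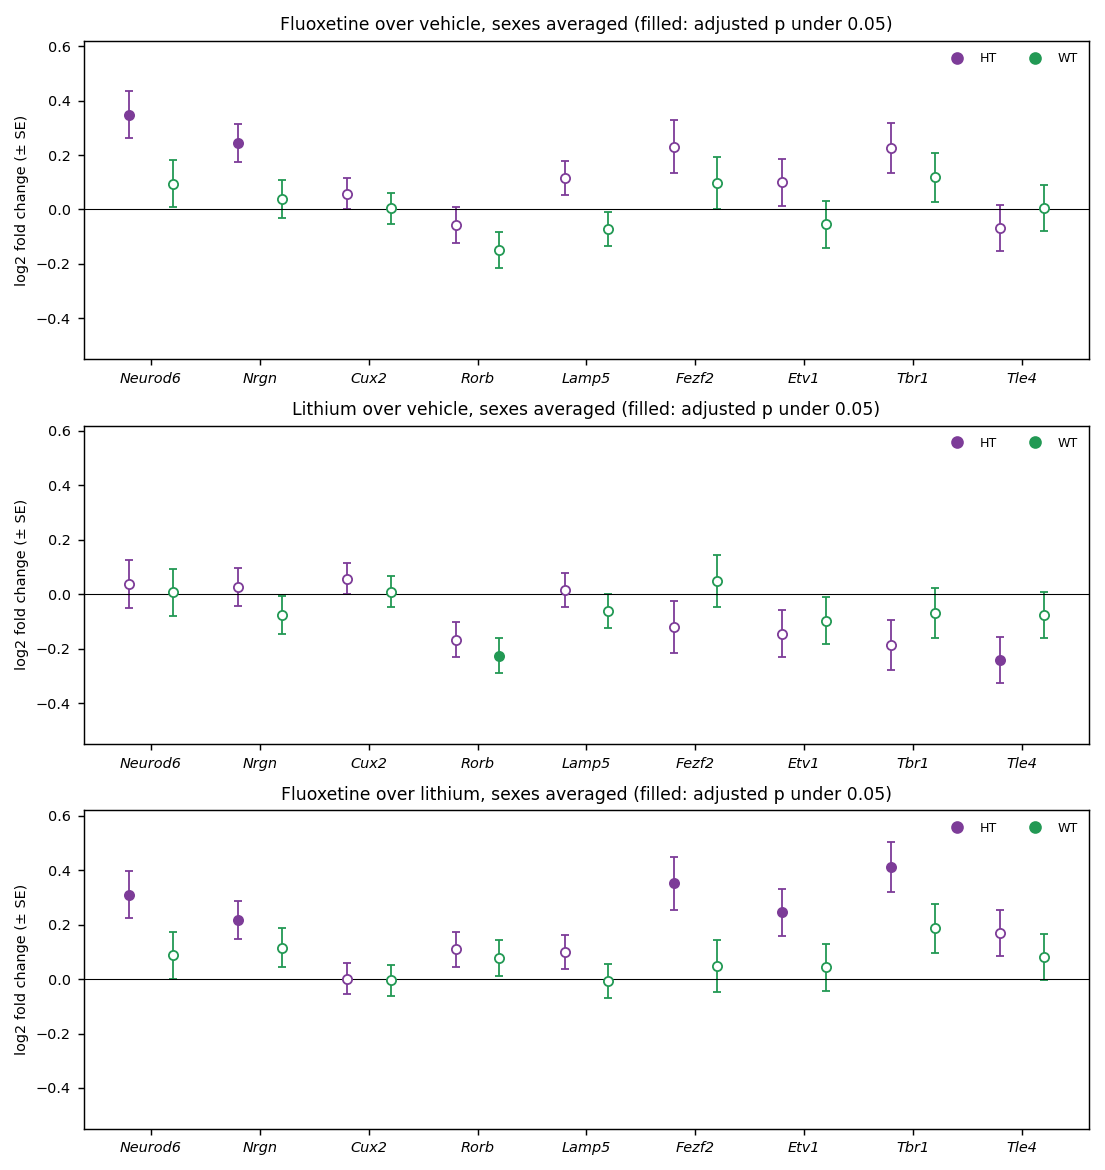
Log2 fold change ± SE (y axis) of the 9 genes (x axis) for fluoxetine over vehicle, lithium over vehicle and fluoxetine over lithium, sexes averaged, in libraries labelled HT (purple) and WT (green); filled points have a limma adjusted p under 0.05. Neurod6 and Nrgn are filled for HT in the top panel, Tle4 for HT and Rorb for WT in the middle one, and 5 genes for HT and none for WT in the lower one.

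Under lithium the genes that fell were Rorb and Tle4, and neither pan-projection gene was called. Over both genotype labels Rorb fell to 960.3 ± 127 normalized counts in 20 lithium libraries, against 1096 ± 99.7 in 20 vehicle libraries (SD), a log2 fold change of -0.20 ± 0.046 (adjusted p = 0.0012). Tle4 averaged 1162 ± 137 under lithium and 1303 ± 198 under vehicle, with -0.16 ± 0.06 (adjusted p = 0.047). With these 2, 0 members rose and 2 of 9 fell, where 22.6% of all genes were called, 11.2% as lower, so the share of members called was close to that of all genes. The Tle4 call over both labels was lost when any 1 of 23 of the 40 libraries was left out (adjusted p up to 0.090), and with covariates for the olfactory bulb and striatal scores, at -0.062 (adjusted p = 0.44). Neurod6 had 0.022 ± 0.061 (adjusted p = 0.83) and Nrgn -0.025 ± 0.05 (adjusted p = 0.77).

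In WT, Rorb was the 1 of 9 members called, against 4.57% of all genes, 2.11% as lower. It had 828, 801, 897, 1023 and 947 normalized counts in WT lithium females, against 1212, 1231, 1214, 999 and 1154 in WT vehicle females. In WT males it had 939, 956, 1038, 1258 and 1044 under lithium and 1285, 1111, 1032, 1066 and 1032 under vehicle. In females 4 lithium libraries lay below all 5 vehicle libraries and female 4 just above the lowest of them, and in males the highest lithium library, male 4, lay near the top of the vehicle range. The log2 fold change was -0.23 ± 0.065 (adjusted p = 0.031) with the sexes averaged, -0.37 ± 0.092 (adjusted p = 0.034) in females (1 of 9 members called, 0.814% of all genes) and -0.081 ± 0.092 (adjusted p = 0.71) in males, where no member was called (1.75% of all genes).

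In libraries labelled HT the same gene had 848, 1035, 763, 972 and 961 normalized counts in lithium males and 1107, 1213, 913, 1009.7 and 1043 in vehicle males, and its log2 fold change over both sexes, -0.17 ± 0.065 (adjusted p = 0.074), missed the threshold. The interaction of genotype label and lithium was 0.06 ± 0.092 (adjusted p = 0.97) for Rorb, so a difference between the labels is not shown. The WT call was lost without lithium female 1 or 2, lithium male 1 or 2, vehicle female 1 or vehicle male 1, each left out alone, when the log2 fold change lay between -0.22 and -0.20 with adjusted p up to 0.076. Depth moved with lithium in females: lithium females held 32.1 to 35.9 M reads and vehicle females 26.6 to 31 M, without overlap, so depth and lithium cannot be told apart there. With depth as a covariate the WT call was lost, at -0.21 (adjusted p = 0.12), and the value over both labels was -0.18 (adjusted p = 0.035). With the olfactory bulb and striatal scores as covariates Rorb had -0.28 (adjusted p = 6.3e-05) in WT and -0.30 (adjusted p = 4.4e-08) over both labels. In libraries labelled HT it had -0.31 (adjusted p = 1.1e-04) with these covariates, and was then called there as well.

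In libraries labelled HT, Tle4 was the 1 of 9 members called under lithium, where 14.6% of all genes were called, 7.14% as lower. It had 1157, 1148, 1265, 988 and 1057 normalized counts in lithium males labelled HT, against 1298, 1568, 1567, 1576 and 1449 in vehicle males labelled HT. In females labelled HT it had 1006, 1267, 1194, 992 and 1168 under lithium and 1507, 1251, 1081, 986 and 1119 under vehicle. The male groups did not overlap and the female groups overlapped widely. The log2 fold change was -0.41 ± 0.12 (adjusted p = 0.017) in males (1 of 9 members called, 13.2% of all genes), -0.07 ± 0.12 (adjusted p = 0.84) in females (no member called, 1.23% of all genes) and -0.24 ± 0.084 (adjusted p = 0.045) with the sexes averaged. The sex by lithium interaction, averaged over both labels, was -0.18 ± 0.12 (adjusted p = 0.61), so the sexes are not shown to differ. In WT the log2 fold change of Tle4 was -0.077 ± 0.084 (adjusted p = 0.68), and the interaction of genotype label and lithium was -0.16 ± 0.12 (adjusted p = 0.93).

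The Tle4 call with the sexes averaged was lost when any 1 of 12 libraries labelled HT was left out: lithium females 1 and 4, lithium males 1, 2, 4 and 5, vehicle females 1 and 2, and vehicle males 2, 3, 4 and 5. Its log2 fold change then lay between -0.25 and -0.20, with adjusted p up to 0.12. The vehicle males labelled HT also had the highest median of summed striatal markers, 37376 normalized counts, against 18796 in vehicle females labelled HT. Of 19 striatal markers 14 fell under lithium in libraries labelled HT (median log2 fold change -0.60), beside 7.14% of all genes called as lower. The summed level of these markers was 15286 to 22346 normalized counts under lithium and 15211 to 42058 under vehicle. With the striatal and olfactory bulb scores as covariates the log2 fold change of Tle4 was -0.045 (adjusted p = 0.78) and it was not called.

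Other deep layer genes fell under lithium in libraries labelled HT, and none rose. Of the other deep layer genes 0 of 27 rose and 5 fell, beside 14.6% of all genes called, 7.14% as lower. The median log2 fold change of the 27 was -0.20, beside -0.00087 for all genes. The genes with the smallest p were Parm1, a mucin-like membrane protein, at -0.35 ± 0.069 (adjusted p = 2.9e-04), Rprm, a cell cycle regulator, at -0.40 ± 0.083 (adjusted p = 6.2e-04), and Foxp2, a forkhead factor of corticothalamic neurons that striatal neurons also express, at -0.62 ± 0.13 (adjusted p = 8.2e-04). Hs3st4, a heparan sulfate sulfotransferase, had -0.38 ± 0.10 (adjusted p = 0.0075). In WT 0 rose and 0 fell of the same 27, with a median of -0.048, beside 4.57% of all genes called. Over both labels the median log2 fold change was -0.12, and 22.6% of all genes were called, 11.2% as lower. Of the 27 deep layer genes 0 rose and 9 fell there. Among them was Ntsr1, the neurotensin receptor of corticothalamic neurons, at -0.31 ± 0.08 (adjusted p = 0.0036).

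Other upper layer genes moved in both directions under lithium. Over both labels 2 of 16 rose and 3 fell, with a median log2 fold change of -0.047. Inhba, the activin A subunit, rose by 0.60 ± 0.095 (adjusted p = 4.5e-06) and Wfs1, an endoplasmic reticulum protein, by 0.29 ± 0.053 (adjusted p = 5.3e-05), whereas Unc5d, a netrin receptor, had -0.14 ± 0.042 (adjusted p = 0.0092) and Cux1, the paralog of Cux2, -0.11 ± 0.038 (adjusted p = 0.022). Cux2 itself had 0.033 ± 0.04 (adjusted p = 0.61) and Lamp5 -0.023 ± 0.044 (adjusted p = 0.76). Of the other pan-projection genes 2 of 22 rose and 3 fell, with a median log2 fold change of -0.0018. Kcnj4 rose by 0.14 ± 0.034 (adjusted p = 0.0015) and Baiap2 by 0.16 ± 0.039 (adjusted p = 0.0023). The calcium sensor gene Hpca had -0.22 ± 0.047 (adjusted p = 4.5e-04) and the transcription factor gene Mef2c -0.15 ± 0.034 (adjusted p = 9.7e-04). Beside these counts, 22.6% of all genes were called over both labels, 11.2% as lower.

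Set directly against each other, the drugs gave the most calls among members in libraries labelled HT. There 5 of 9 members were higher under fluoxetine than under lithium and none was lower: Tbr1, Fezf2, Neurod6, Etv1 and Nrgn. All genes tested gave 24.8% called, 12.2% as higher. All 9 log2 fold changes were above 0, with a median of 0.22 beside -0.0023 for all genes. In WT no member was called, against 9.76% of all genes, and the median was 0.078. These comparisons use the same fluoxetine and lithium libraries as those with vehicle above.

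Tbr1 had 4346, 4880.0, 3996, 5311 and 3529 normalized counts in fluoxetine males labelled HT, against 2398, 3328, 2901, 3273 and 3313 in lithium males labelled HT. In females labelled HT it had 4326, 3223, 4791, 4201 and 3229 under fluoxetine and 2844, 3616, 3642, 2583 and 3400.2 under lithium. The male groups did not overlap, and in females 3 fluoxetine libraries lay above all lithium libraries and 2 within their range. The log2 fold change was 0.41 ± 0.091 (adjusted p = 5.7e-04), with 10 of 10 fluoxetine libraries above their sex's lithium mean, and the WT value was 0.19 ± 0.091 (adjusted p = 0.19).

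Fezf2 had 1198, 1192, 993, 1238 and 761 normalized counts in fluoxetine males labelled HT, against 625, 694, 788, 782 and 783 in lithium males labelled HT. Its values in females labelled HT were 1029, 774, 1239, 848 and 762 under fluoxetine and 710.4, 1006, 855, 748 and 777 under lithium. In males 4 fluoxetine libraries lay above every lithium library and male 5 lay among them, and the female groups overlapped. The log2 fold change was 0.35 ± 0.096 (adjusted p = 0.0051) with the sexes averaged, 0.53 ± 0.14 (adjusted p = 0.005) in males and 0.17 ± 0.14 (adjusted p = 0.53) in females.

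Etv1 had 2898, 2818, 3106, 3473 and 2982 normalized counts in fluoxetine males labelled HT, against 3355, 1824, 2892, 2286 and 2019 in lithium males labelled HT. In females labelled HT it had 3134, 2712, 3001, 3018 and 3276 under fluoxetine and 2144, 2783, 2386, 3496 and 2972 under lithium. Lithium libraries were spread far more widely than fluoxetine ones, and the groups overlapped in both sexes. The log2 fold change was 0.25 ± 0.087 (adjusted p = 0.031). The call was lost without fluoxetine female 5, fluoxetine male 4, lithium female 1 or 3, or lithium male 2 or 5, each left out alone, when the log2 fold change lay between 0.19 and 0.23 with adjusted p up to 0.091, and edgeR gave 0.22 (adjusted p = 0.057). It was also lost with quantile normalization, at 0.23 (adjusted p = 0.056), and with the fit on only the groups compared, at 0.25 (adjusted p = 0.071).

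Neurod6 averaged 3249 ± 469.8 normalized counts under fluoxetine and 2625 ± 427 under lithium in libraries labelled HT (SD, n = 10 each), with a log2 fold change of 0.31 ± 0.086 (adjusted p = 0.0061). Nrgn averaged 36572 ± 3596 under fluoxetine and 31632 ± 4411 under lithium, with a log2 fold change of 0.22 ± 0.071 (adjusted p = 0.019). The Nrgn call was lost without lithium male 1 labelled HT, the lowest library of all for this gene, when the log2 fold change was 0.17 (adjusted p = 0.066), and with depth as a covariate, at 0.17 (adjusted p = 0.1). The upper layer members were not called: Lamp5 had 0.099 ± 0.063 (adjusted p = 0.26), Rorb 0.11 ± 0.065 (adjusted p = 0.23) and Cux2 0.00085 ± 0.057 (adjusted p = 0.99). The deep layer gene Tle4 had 0.17 ± 0.084 (adjusted p = 0.14).

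**Figure D3:**
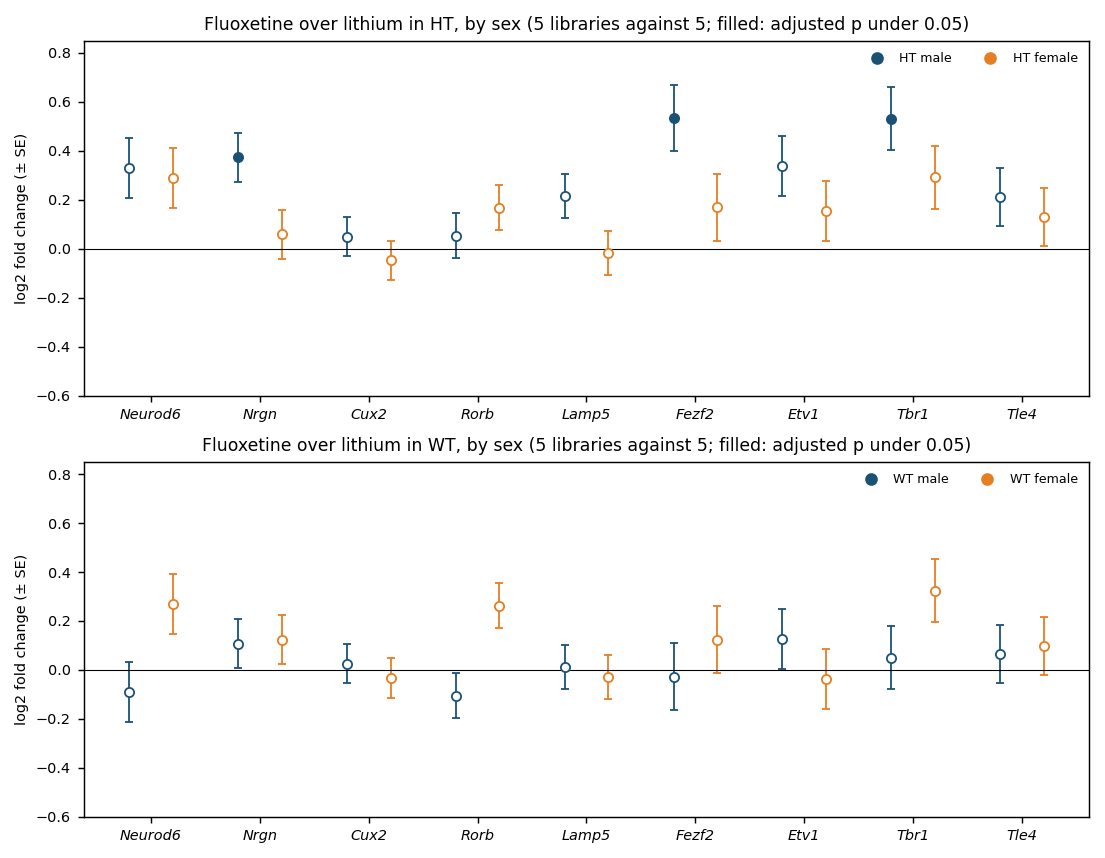
Log2 fold change ± SE (y axis) of fluoxetine over lithium for the 9 genes (x axis) in males (blue) and females (orange), in libraries labelled HT (top) and WT (bottom), 5 libraries against 5; filled points have a limma adjusted p under 0.05. Nrgn, Fezf2 and Tbr1 are filled for males labelled HT, and no other point is filled.

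By sex, 3 members were called in males labelled HT, where 15.9% of all genes were: Tbr1 at 0.53 ± 0.13 (adjusted p = 0.0032), Fezf2 as above and Nrgn at 0.37 ± 0.10 (adjusted p = 0.0075). In females labelled HT none was called against 5.52% of all genes, with Neurod6 at 0.29 ± 0.12 (adjusted p = 0.16) and Tbr1 at 0.29 ± 0.13 (adjusted p = 0.18). In WT males (1.1% of all genes) and WT females (7.16% of all genes) none was called either, and WT females had 0.32 ± 0.13 (adjusted p = 0.11) for Tbr1. The difference between the sexes and that between the labels in this contrast were not tested, so neither is shown. Depth differed by drug in males: fluoxetine males labelled HT held 32.8 to 36.6 M reads and lithium males labelled HT 26.6 to 33.5 M. In females of both labels the medians were 34.7 M under fluoxetine and 34.5 M under lithium. In libraries labelled HT of both sexes, depth as a covariate gave Tbr1 0.37 (adjusted p = 0.0045) and Fezf2 0.31 (adjusted p = 0.024). Nrgn was not called there, as given above. The part of depth in the calls by sex was not tested.

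More of the other deep layer genes were higher than lower under fluoxetine against lithium in libraries labelled HT. Of them 11 of 27 rose and 1 fell, beside 24.8% of all genes called, 12.2% as higher. The median log2 fold change of these 27 was 0.20, and 24 of 27 had a positive log2 fold change. The 4 with the smallest p were Parm1 at 0.40 ± 0.069 (adjusted p = 2.2e-05), Ldb2 at 0.36 ± 0.078 (adjusted p = 4.8e-04), Ntsr1 at 0.51 ± 0.11 (adjusted p = 5.7e-04) and Rprm at 0.37 ± 0.083 (adjusted p = 6.5e-04). In WT 3 of 27 rose and 0 fell, beside 9.76% of all genes called, and the median log2 fold change was 0.093. Parm1 had 0.28 ± 0.069 (adjusted p = 0.006) and Ntsr1 0.45 ± 0.11 (adjusted p = 0.0081). Bcl11b, a zinc finger factor of subcerebral neurons downstream of Fezf2, had 0.33 ± 0.084 (adjusted p = 0.0092). Of the other upper layer genes in libraries labelled HT 3 of 16 rose and 2 fell, with a median log2 fold change of 0.09. Of the other pan-projection genes 5 of 22 rose and 2 fell, with a median log2 fold change of 0.078, with Kcnj4 at -0.38 ± 0.048 (adjusted p = 1.8e-07) and Mef2c at 0.29 ± 0.048 (adjusted p = 1.1e-05). The olfactory bulb list had a median of -0.33 and the striatal list 0.33 in the same libraries; with both scores as covariates Tbr1 had 0.34 (adjusted p = 4.1e-05), Fezf2 0.29 (adjusted p = 0.0034), Etv1 0.29 (adjusted p = 3.3e-04) and Rorb 0.12 (adjusted p = 0.046), which was then called as well.

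No member was called between the genotype labels in any of the 4 comparisons with the sexes averaged. Of all genes 0.152% were called under vehicle, 0.135% under fluoxetine, 0.573% under lithium and 5.06% over the 3 treatments. The members with the smallest p over the 3 treatments were Nrgn, with a log2 fold change of -0.12 ± 0.041 (adjusted p = 0.077) in HT over WT, and Etv1, with -0.14 ± 0.05 (adjusted p = 0.098). Under vehicle Nrgn averaged 30847 ± 2553 normalized counts in libraries labelled HT and 36199 ± 5435 in WT (SD, n = 10 each), a log2 fold change of -0.22 ± 0.071 (adjusted p = 0.25). Members with an unadjusted p under 0.05 numbered 2, 0, 1 and 3 in these comparisons, and edgeR and DESeq2 called none in any of them.

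The olfactory bulb list was lower in libraries labelled HT, without any of its 15 markers called (median log2 fold change -0.56 over the 3 treatments), and the striatal list higher (0.20). With both scores as covariates Nrgn at -0.15 (adjusted p = 0.0035) and Tbr1 at -0.13 (adjusted p = 0.016) were called lower, and without the 2 doubted libraries Etv1 was, at -0.17 (adjusted p = 0.027). One member, Etv1 or Nrgn, also passed when 1 library was left out: lithium male 1 or vehicle male 1 labelled HT, or WT fluoxetine male 4 or WT vehicle female 4. Among other genes of these classes, 3 of 16 upper layer genes were higher in libraries labelled HT: Wfs1 at 0.29 ± 0.043 (adjusted p = 2.2e-05), Rspo1, a Wnt pathway agonist, at 0.37 ± 0.071 (adjusted p = 9.0e-04), and the semaphorin receptor gene Plxnd1 at 0.19 ± 0.048 (adjusted p = 0.013). Of 22 pan-projection genes 2 were lower, Emx1, a homeodomain factor of the cortical primordium, at -0.20 ± 0.054 (adjusted p = 0.021), and Slc17a7 at -0.10 ± 0.031 (adjusted p = 0.045). Of 27 deep layer genes 3 were lower. Beside these counts, 5.06% of all genes were called over the 3 treatments.

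No member was called between males and females over the 6 combinations of label and treatment, where 1.19% of all genes were called. The largest difference by size was that of Etv1, with a log2 fold change of -0.12 ± 0.05 (adjusted p = 0.16) in males over females. Members with an unadjusted p under 0.05 numbered 1, and edgeR and DESeq2 called none. None of the 9 interactions fitted, of genotype label or sex with a drug or with each other, called a member, and they called at most 0.0112% of all genes. The smallest adjusted p of a member in them was 0.32, for Fezf2 in the interaction of genotype label and lithium in males.

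Within groups, Fezf2, Tbr1, Tle4 and Neurod6 varied together from library to library. Each member's log2 value was expressed as its deviation from the mean of its group, so that differences between groups play no part, and all 36 pairs were compared over the 60 libraries with permutation within groups (100000 resamples, two-sided, p adjusted over the 36 pairs). Fezf2 and Tbr1 were the closest pair (r = 0.82, rho = 0.80), followed by Tbr1 and Tle4 (r = 0.77, rho = 0.76), Neurod6 and Fezf2 (r = 0.75, rho = 0.70) and Fezf2 and Tle4 (r = 0.69, rho = 0.67). Nrgn and Lamp5 formed another pair (r = 0.69, rho = 0.64), and Cux2 varied with Nrgn (r = 0.50, rho = 0.47), Lamp5 (r = 0.47, rho = 0.39) and Rorb (r = 0.40, rho = 0.38), each with an adjusted p of at most 0.021 for r and for rho. Its r with the 4 deep layer genes lay between -0.30 and -0.082. For these 4 pairs with Fezf2 or Tbr1, and for Nrgn and Lamp5, the permutation p was 1e-05 for r and for rho, the smallest that 100000 resamples can give, and the adjusted p was 6.0e-05. Without the 2 libraries farthest from the median the r of Fezf2 and Tbr1 was 0.797 and that of Nrgn and Lamp5 was 0.603.

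Etv1, unlike the other deep layer genes, had no positive r at an adjusted p under 0.05. It varied against Nrgn (r = -0.51, rho = -0.37, permutation adjusted p = 0.0031 for r), Rorb (r = -0.40, rho = -0.41, 0.021) and Tbr1 (r = -0.37, rho = -0.29, 0.02; adjusted p = 0.08 for rho). In all 14 pairs had a positive and 3 a negative r at an adjusted p under 0.05, and all 17 kept their sign without the 2 libraries farthest from the median of the first gene.

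**Figure D4:**
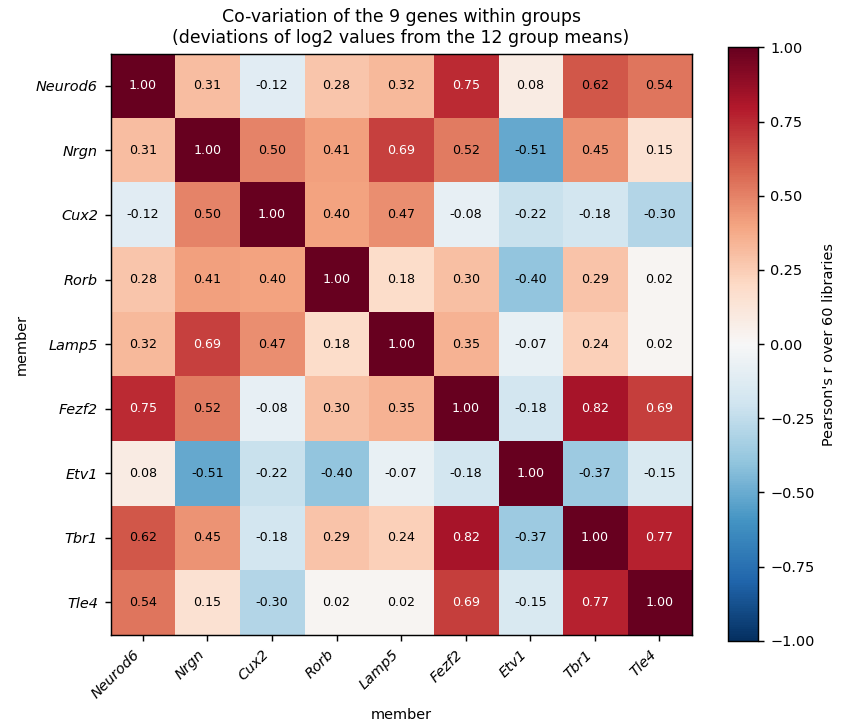
Pearson's r (colour and printed value) for each pair of the 9 genes (both axes), over 60 libraries, from deviations of log2 values from the 12 group means. Neurod6, Fezf2, Tbr1 and Tle4 form a block of positive values, and the row of Etv1 holds most of the negative ones.

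The gene outside the 9 that varied most like each member is given as a description, from 11835 genes that average 100 normalized counts or more, the members and genes with no symbol or only a provisional one (such as Gm or Rik names) being left out. For Tbr1 it was Cadps2, which encodes a dense-core vesicle priming protein (r = 0.95), for Etv1 Deptor, an mTOR inhibitor (r = 0.91), for Fezf2 the calcium-dependent phosphodiesterase Pde1a (r = 0.88), and for Nrgn the septin Sept5 (r = 0.88). Neurod6 was matched by Ldb2 (r = 0.86), Tle4 by Zfpm2 (r = 0.85), Cux2 by Cpne9 (r = 0.83), Lamp5 by Cd34 (r = 0.80) and Rorb by Dbpht2 (r = 0.78). Each r was the highest of many, and both genes of a pair were read in the same libraries, with the same depth and dissection.

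The members also varied with marker lists that they are not part of. Tle4, Tbr1 and Fezf2 followed the other deep layer genes (r = 0.84, 0.70 and 0.57), but Etv1 did not (-0.06). Cux2 followed the other upper layer genes (0.63). Rorb and Lamp5 followed them less (0.35 and 0.27) than they followed the pan-projection genes (0.56 and 0.49). Nrgn, Fezf2 and Tbr1 followed the other pan-projection genes (0.72, 0.72 and 0.76), and Etv1 ran against them (-0.62). With the olfactory bulb list, r was 0.72 for Etv1, which bulb interneurons also express, and negative for the other 8, down to -0.67 for Tbr1 and -0.66 for Rorb. With the striatal list it was 0.66 for Tle4 and 0.62 for Tbr1, and -0.03 for Rorb. Gene and list were read in the same 60 libraries, with the same depth and dissection, and these values are a description with no p.

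**Figure D5:**
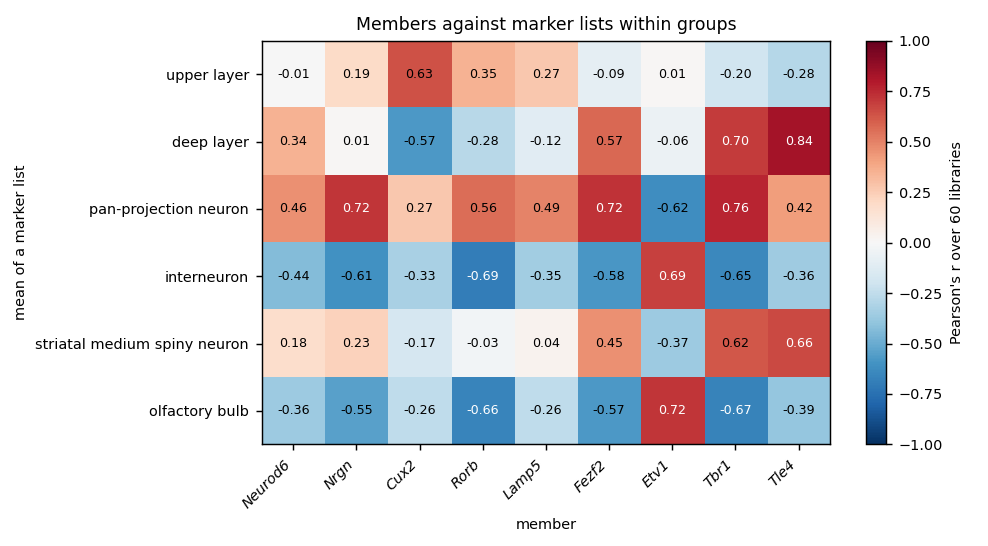
Pearson's r (colour and printed value) between each of the 9 genes (x axis) and the mean of a marker list (y axis), over 60 libraries, both as deviations of log2 values from the 12 group means; no member is in a list. Etv1 is the only member with a positive value for the olfactory bulb and interneuron lists, and Tle4 has the highest value for the deep layer list.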

How the data were processed

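RNA from prefrontal cortex was sequenced with a stranded mRNA kit, per the labels' protocols. Reads were quantified with Salmon 0.11.2 on GRCm38 and normalized with DESeq2 1.19.11 under R 3.6.0, per the submitters' processing notes; the annotation and strand setting are not given in the sources used here. The deposited signal values are counts per gene divided by a size factor for each library, read from the values: 100% became whole reads within 0.01, 25.1 to 36.6 M per library, with size factors of 0.85 to 1.25. All columns matched a sample.

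Of 18088 Ensembl IDs, 18077 had a symbol. A gene needed 10 or more normalized counts in 5 or more libraries, which left 17804 genes and removed 284. limma 3.58.1 (R 4.3.3, trended variance) fitted log2(normalized count + 1) with 12 group means and 48 residual degrees of freedom. Contrasts averaged the sexes or were taken within one, and p-values were adjusted over all genes tested. edgeR 4.0.16 and DESeq2 1.42.0 on the recovered reads, other scalings, filters, pseudocounts, covariates and sets of libraries were alternatives. The fit was tested on simulated data.

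The 9 members and the gene lists were chosen with earlier results of these data known. All 9 members are named, with the gene most like each and up to 4 called genes per list with the smallest adjusted p; 1 gene that this rule names is not reported here. Gene coordinates and merged exon lengths came from the GENCODE annotation of GRCm38, and promoter sequences from RefSeq on GRCm38.p6.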

Additional observations from a re-analysis of the deposited data

Results flagged for a closer look

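In 6 of 108 combinations of a gene and a group of 5, 1 library stood apart from the other 4 by more than Dixon's critical value of 0.71; chance gives about 1 in 20. Neurod6 had 2563 normalized counts in WT fluoxetine male 4, the lowest of its group, and 3571 in WT lithium female 5, the highest. Fezf2 was also highest in WT lithium female 5, at 1146 normalized counts, and lowest of its group in WT vehicle male 5, at 648. Cux2 had 2976 normalized counts in lithium male 1 labelled HT, the lowest of its group, and Lamp5 6505 in WT fluoxetine male 2, the highest of its group and one of the 2 doubted libraries.

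In 3 contrasts every library of one set lay on one side of its comparison mean and every library of the other set on the other side. These were picked for that split from all members over many contrasts, which favours finding some. The share of all genes with such a split was not computed. For Neurod6, fluoxetine against lithium in WT, all 5 male fluoxetine libraries lay below and all 5 female ones above their sex's lithium mean; the log2 fold changes differed by -0.36 (male minus female), and this difference was not tested. For Nrgn, fluoxetine against vehicle in females, the libraries labelled HT lay above and the WT ones below their vehicle mean, a difference of 0.31 (HT minus WT; interaction in females, limma adjusted p = 1). For Fezf2, lithium against vehicle in males, the libraries labelled HT lay below and the WT ones above, a difference of -0.48 (HT minus WT; interaction in males, limma adjusted p = 0.32).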

How the results depend on the processing

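No log2 fold change of a called member changed sign under any alternative run or with 1 library left out. In all 90 comparisons made under TMM or quantile scaling, a list median moved by less than the median SE of the single genes in its list. The lowest value of any member was 625 normalized counts (Fezf2 in lithium male 1 labelled HT), so counting error was small beside the spread between libraries. With log2 depth as a covariate, 0 members were called for fluoxetine against vehicle in libraries labelled HT and over both labels, and 0 for lithium against vehicle in WT. For fluoxetine over both labels 1 member was called by edgeR, 1 with the fit on only the groups compared, 1 without the 2 doubted libraries and 1 with the replicate block. The tissue score covariates gave 1 for lithium over both labels and 2 for HT against WT over the 3 treatments, where leaving out the 2 doubted libraries gave 1. The cause was not tested. With each library left out, the count of members ranged from 2 to 3 for fluoxetine in libraries labelled HT, 1 to 4 over both labels, 0 to 1 for lithium in libraries labelled HT and likewise in WT, 1 to 2 over both labels, 4 to 5 for fluoxetine against lithium in libraries labelled HT and 0 to 1 for HT against WT over the 3 treatments.

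Replicate numbers did not pair the libraries: over 330 pairs with the same number in different groups the median r of deviations was -0.008, and 8 of 60 libraries correlated best with their own number. With the replicate block Nrgn had a log2 fold change of 0.14 (limma adjusted p = 0.053) for fluoxetine over both labels, and no other count of members moved. The block gave 78 genes rather than 102 for HT against WT under lithium and 295 rather than 211 for male against female.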
